A study of Mus musculus with 17 samples.

Results

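The transcripts of 10 antioxidant enzymes were followed in the mouse heart 5d after myocardial infarction (MI). The genes were Sod1, Sod2, Sod3, Cat, Gpx1, Gpx3, Prdx1, Prdx3, Txnrd1 and Nqo1, taken by name as 10 of the 31647 features in the count table, and all 10 had a feature of their own. RNA came from the hearts of male C57BL/6J wild-type mice aged 8 to 11 weeks. In 9 mice the left anterior descending coronary artery (LAD) had been ligated permanently and the infarct zone (IZ) was sampled, and in 8 mice sham surgery had been done without ligation and left ventricle was sampled. Surgery was done under isoflurane after an injection of buprenorphine. The mice carried no transgene, and no group of non-infarcted tissue from the ligated hearts was analysed here. Whole tissue was sequenced by massive analysis of cDNA ends (MACE), a method that sequences transcripts next to their poly(A) tail and counts molecules by their identifiers.

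Oxygen metabolism releases superoxide, which superoxide dismutases turn into hydrogen peroxide. Catalase, glutathione peroxidases and peroxiredoxins then reduce the peroxide, the glutathione peroxidases with electrons from glutathione and most peroxiredoxins with electrons from thioredoxin, which thioredoxin reductases recharge from NADPH. Each step has separate enzymes for separate compartments. Sod1, Gpx1, Prdx1 and Txnrd1 act mainly in the cytosol, Sod2 and Prdx3 in the mitochondrial matrix, catalase in peroxisomes, and Sod3 and Gpx3 are secreted. Nqo1 reduces quinones in the cytosol and is a classical target of NRF2, the transcription factor that binds antioxidant response elements.

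Gpx1, Gpx3 and Txnrd1 are selenoproteins, in which a TGA that would normally end translation is read as selenocysteine. The stretches around that codon are shown because they set these enzymes apart from the other 7. They were read from the GENCODE transcripts (GRCm38), with the recoded TGA in capitals, and positions are given for the first annotated transcript of each gene.
Gpx1: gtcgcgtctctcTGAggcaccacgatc
Gpx3: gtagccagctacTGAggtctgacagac
Txnrd1: cagtctggctgcTGAggt
In Gpx1 the codon lies at chr9:108339451-108339453 on the plus strand, in exon 1 of 2, as codon 47 of 201. In Gpx3 it lies at chr11:54907256-54907258 on the plus strand, in exon 2 of 5, as codon 73 of 226. In Txnrd1 it lies at chr10:82896037-82896039 on the plus strand, in exon 14 of 14, as codon 498 of 499, so that only a glycine codon (ggt) follows.

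Promoter sequence is shown for the letters that NRF2 is known to bind. The core of the antioxidant response element was searched as TGACNNNGC on both strands of RefSeq windows from 250 bases before to 50 after each start (GRCm38.p6). It occurred in 4071 of 32851 windows, or 12.4%, and in 3 of the 11 windows of these enzymes. By gene, 13.99% of all genes and 3 of the 9 enzymes with a window held it. Each match lay on the minus strand, so that the printed plus strand holds the reverse complement, in capitals.
Prdx1 (chr4:116685456-116685485): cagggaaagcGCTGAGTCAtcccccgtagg
Txnrd1 (chr10:82859104-82859133): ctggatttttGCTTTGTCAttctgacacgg
Sod1 (chr16:90220696-90220725): gccaaggtggGCGTGGTCAgactcaggcct
In Prdx1 the match overlapped an AP-1 site, TGACTCA, which occurred in 5.2% of all windows and in no other enzyme's window. Of these 3 genes, Prdx1 and Txnrd1 were higher in the IZ, and Sod1 was lower. A match here describes the letters in the window only.

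Total counts ran from 1820809 to 4257919 in the sham libraries and from 1237675 to 4738307 in the IZ libraries. The replicates are separate mice. No batch, date or lane was given, so nothing could be repeated within batches. Levels are given as CPM, counts relative to a library size that was scaled by the trimmed mean of M values (TMM), and changes as log2 fold changes of the IZ over sham from edgeR's quasi-likelihood test with their standard error (SE). Every adjusted p of a gene is from that test, two-sided, with Benjamini-Hochberg adjustment over 12301 tested genes and a threshold of 0.05.

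The cell types differed between the groups, and 1 IZ library stood apart. All 10 cardiomyocyte markers tested were lower in the IZ, with a summed level of 69128 to 100510 CPM in sham, 28320 CPM in IZ replicate 1 and 2150 to 6011 CPM in the other 8 IZ libraries. Of 8 fibroblast markers 7 were higher (1541 to 2981 CPM summed in sham, 12685 in IZ replicate 1, 14881 to 20695 in the others), as were all 9 tested macrophage markers (441 to 624, 2475, and 3987 to 5965 CPM). The 3 tested neutrophil markers of 6 were higher (4.4 to 12.3, 15.2, and 35.1 to 210 CPM). Ly6g was too low to be tested, at 0 in every sham library and never above 1 count in the IZ. Mitochondrially encoded features took 22.9 to 32.4% of sham counts, 19.5% in IZ replicate 1 and 4.22 to 6.78% in the other IZ libraries. In whole tissue, fewer cells of a type and less RNA per cell cannot be told apart.

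All 10 enzymes were called, 5 higher and 5 lower in the IZ. Over all tested genes 69.5% were called, 36.3% higher and 33.1% lower, so a call in itself did not set the enzymes apart. The 5 that rose were Sod3, Gpx1, Gpx3, Prdx1 and Txnrd1, and the 5 that fell were Sod2, Prdx3, Nqo1, Cat and Sod1, of which Cat and Sod1 were not called when libraries were scaled by total counts alone. Of the calls, 8 were at least 2-fold. Every IZ library lay above every sham library for 3 of the 10 enzymes, against 16.6% of all tested genes, and below for 4 of 10, against 16.5%. The median log2 fold change of the 10 was −0.07, beside 0.05 for all tested genes, and their summed level ran from 1915 to 2449 CPM in sham and from 1943 to 2665 CPM in the IZ. The sum overlapped between the groups while 7 of its parts did not.

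**Figure D1:**
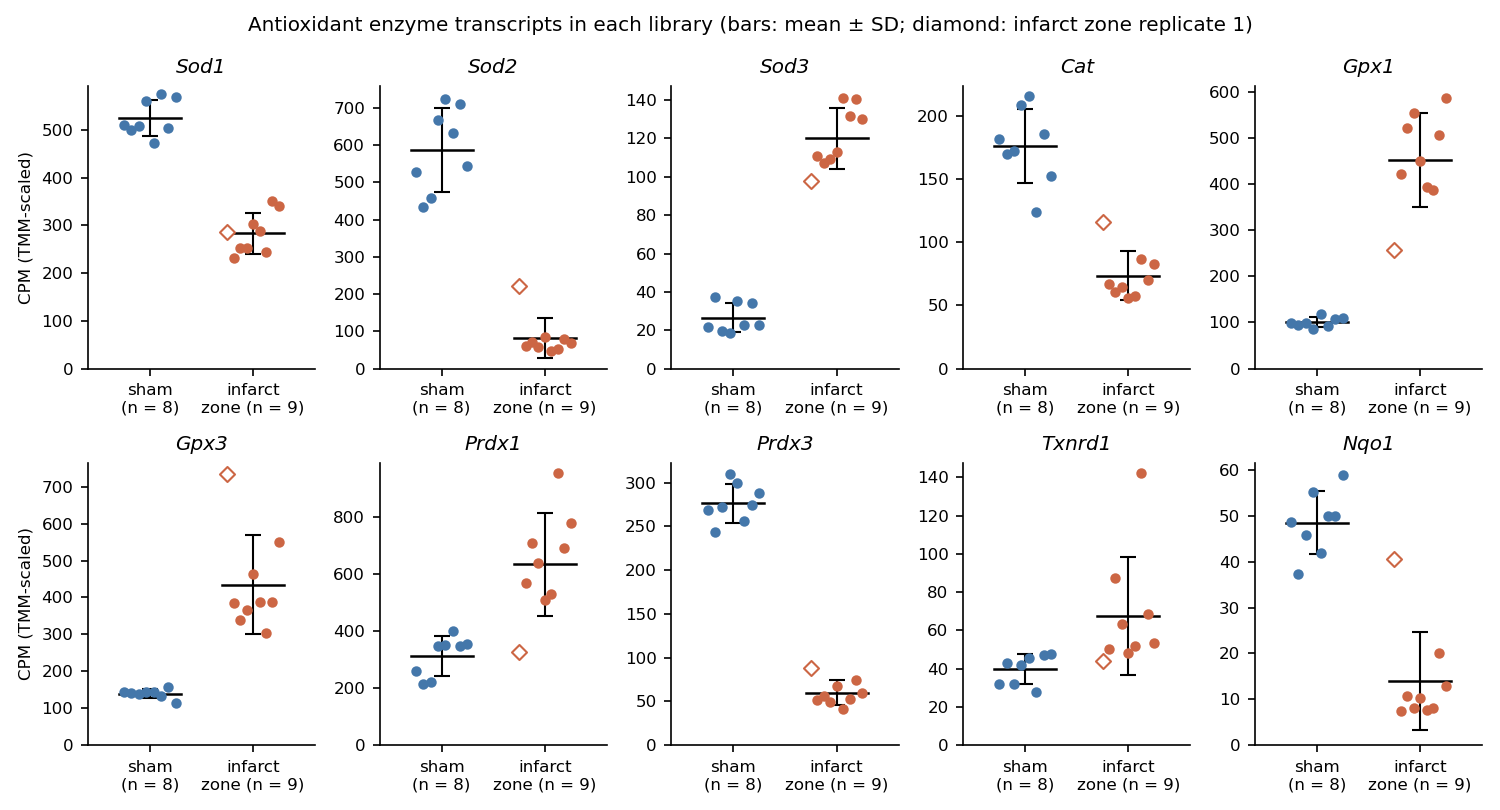
Level of each antioxidant enzyme in CPM (y axis, linear from 0) in every sham and IZ library, 1 point per mouse, with the mean and SD of each group as bars and IZ replicate 1 as an open diamond. The groups do not overlap for Sod1, Sod2, Sod3, Cat, Gpx1, Gpx3 and Prdx3, and IZ replicate 1 is the IZ library nearest to sham for all enzymes but Sod1 and Gpx3.

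Of the superoxide dismutases, mitochondrial Sod2 fell most, cytosolic Sod1 fell less and secreted Sod3 rose. With 1 enzyme for each compartment, an effect of compartment cannot be told from a difference between genes. Sod2 (ENSMUSG00000006818, chromosome 17, 13006846 to 13040063), the manganese enzyme of the mitochondrial matrix, had a lowest level of 435 CPM, a median of 588 and a highest of 724 in sham. In the IZ the lowest was 46.1 CPM, the median 69.6 and the highest 222. All 9 IZ libraries lay below all sham libraries, and IZ replicate 1 held the highest value, with the others at no more than 85.0 CPM. The mean went from 587 ± 112 CPM (SD, n = 8) to 82.7 ± 53.8 CPM (SD, n = 9), or 65.3 ± 13.0 CPM without IZ replicate 1 (SD, n = 8). The log2 fold change was −2.83 (SE 0.25, adjusted p 1.2e-09), or −3.21 without that library. Stretches near the ends of annotated Sod2 transcripts matched 8 other genes over 116 to 193 bases at 95% identity or more, so that reads there could be shared. The 7 of these genes with a feature held 35.6% as many counts as Sod2 in all. A fit with those counts added to Sod2 was not run.

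Sod1 (ENSMUSG00000022982, chromosome 16, 90220754 to 90226329), the copper and zinc enzyme of the cytosol, ran from 473 to 575 CPM in sham with a median of 509. In the IZ it ran from 231 to 351 CPM with a median of 286. The groups did not overlap, and the spread within each was narrow, at 7.19% of the mean in sham and 15.0% in the IZ. The log2 fold change was −0.89 (SE 0.12, adjusted p 3.5e-07), but with total counts alone as library sizes it was 0.18 with an adjusted p of 0.174. That scaling raised the median of all tested genes by 1.09, and relative to the median Sod1 was at −0.96 with total counts and at −0.95 with TMM. A change of scaling shifts all genes nearly alike, so these distances agree by construction and do not decide between the scalings. The processed pseudogene Gm8566 matched the Sod1 3' end over 428 bases at 98.4% identity and held 27.5% as many counts as Sod1. Its own level went from 155 ± 45.4 CPM (SD, n = 8) to 71.2 ± 10.7 CPM (SD, n = 9), and Sod1 with the pseudogene added had a log2 fold change of −0.94.

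Sod3 (ENSMUSG00000072941, chromosome 5, 52363791 to 52371418), the secreted enzyme that binds to the extracellular matrix, ran from 18.4 to 37.3 CPM in sham with a median of 22.8. In the IZ it ran from 97.8 to 141 CPM with a median of 113. Every IZ library lay above every sham library, and IZ replicate 1 held the lowest IZ value. The level rose 4.48-fold, a log2 fold change of 2.16 (SE 0.15, adjusted p 1.8e-11). Ccs, the chaperone that loads copper into Sod1 and the only other gene of this list, had a log2 fold change of 0.04 (adjusted p 0.81). Sod3 moved in the direction of the fibroblast and macrophage markers, and Sod1 and Sod2 in that of the cardiomyocyte markers, whose part in these changes was not tested.

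Catalase transcripts fell along with those of most peroxisomal genes. Cat (ENSMUSG00000027187, chromosome 2, 103453849 to 103485160), which breaks down hydrogen peroxide in peroxisomes, ran from 124 to 216 CPM in sham with a median of 177, and from 55.5 to 116 CPM in the IZ with a median of 67.2. The groups did not overlap, although sham replicate 6 at 124 CPM and IZ replicate 1 at 116 CPM came close. On the log2 scale Cat fell by 1.26 (SE 0.15, adjusted p 5.9e-08), while under total counts alone the change was −0.20 with an adjusted p of 0.13. Relative to the median of all tested genes that was −1.34, a distance that any scaling leaves nearly unchanged. Of 28 genes for catalase, peroxisome assembly and peroxisomal lipid metabolism, 21 were lower and 2 higher, and under total counts alone 9 were lower and 9 higher. Their median log2 fold change was −0.91. The lowest of the 28 was Phyh, the oxidase that starts the breakdown of phytanic acid, at −3.31 (SE 0.25, adjusted p 6.7e-11). Its level went from 536 ± 35.6 CPM (SD, n = 8) to 54.2 ± 35.8 CPM (SD, n = 9). The highest was Acox3, a peroxisomal oxidase of branched-chain acids, at 0.79 (SE 0.16, adjusted p 1.1e-04).

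The cytosolic and secreted glutathione peroxidases both rose. Gpx1 (ENSMUSG00000063856, chromosome 9, 108338903 to 108340343), the main cytosolic selenoperoxidase, ran from 85.3 to 118 CPM in sham with a median of 99.7. In the IZ the lowest was 257 CPM, the median 450 and the highest 588. Every IZ library lay above every sham library, and IZ replicate 1 held the lowest IZ value. The level rose 4.49-fold (log2 fold change 2.17, SE 0.15, adjusted p 2.3e-11).

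Gpx3 (ENSMUSG00000018339, chromosome 11, 54902453 to 54910377), the secreted peroxidase of plasma and extracellular fluid, ran from 113 to 158 CPM in sham with a median of 143. In the IZ it ran from 303 to 735 CPM with a median of 387, with no overlap. Here IZ replicate 1 held the highest value, unlike for Gpx1. Its log2 fold change was 1.64 (SE 0.16, adjusted p 4.0e-09), and 1.47 without IZ replicate 1. Of 8 glutathione peroxidases 5 were tested, with 4 higher and 1 lower. Gpx7, an endoplasmic reticulum member without selenium, rose most at 2.60 (SE 0.18, adjusted p 2.3e-11). Gpx4, which reduces lipid peroxides in membranes, went from 271 ± 24.1 CPM (SD, n = 8) to 131 ± 46.7 CPM (SD, n = 9) at −1.05 (SE 0.16, adjusted p 3.4e-06) and was not called with total counts alone. Gpx1 and Gpx3 were higher in the IZ, as were the fibroblast and macrophage markers given above, whose part was not tested. IZ replicate 1 had the lowest fibroblast and macrophage sums of the IZ, and it had the lowest Gpx1 but the highest Gpx3.

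The peroxiredoxins moved in both directions, with Prdx3 lower and Prdx1 higher. Prdx3 (ENSMUSG00000024997, chromosome 19, 60864051 to 60874556), the mitochondrial peroxiredoxin, ran from 243 to 309 CPM in sham with a median of 273, and from 41.4 to 88.1 CPM in the IZ with a median of 56.5. The groups were far apart, and the mean went from 276 ± 22.0 CPM (SD, n = 8) to 60.01 ± 14.5 CPM (SD, n = 9). That was a log2 fold change of −2.21 (SE 0.13, adjusted p 3.3e-12).

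Prdx1 (ENSMUSG00000028691, chromosome 4, 116685544 to 116700822), the abundant cytosolic peroxiredoxin, ran from 214 to 401 CPM in sham with a median of 347, and from 324 to 953 CPM in the IZ with a median of 639. In 8 of 9 IZ libraries Prdx1 exceeded every sham library, and IZ replicate 1 at 324 CPM lay within the sham range. On average it rose by 1.02 on the log2 scale (SE 0.18, adjusted p 3.4e-05). Adding the counts of 2 processed pseudogenes with near-identical ends, 4.36% as many as those of Prdx1, gave 1.03. Among 10 genes of peroxiredoxins, sulfiredoxin (Srxn1) and sestrins, 4 were higher and 5 lower, and 5 and 3 under total counts alone. Prdx4, the peroxiredoxin of the secretory pathway, was highest of those outside the 10 enzymes at 1.49 (SE 0.16, adjusted p 3.1e-08), and Prdx5, found in mitochondria and peroxisomes among other sites, was lowest at −1.42 (SE 0.14, adjusted p 5.1e-09). The direction did not follow the compartment throughout, since cytosolic Prdx2 and Prdx6, named after their values were seen, stood at −1.03 (SE 0.14, adjusted p 7.6e-07) and −0.92 (SE 0.12, adjusted p 3.8e-07), although at 0.02 and 0.15 with total counts alone.

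Txnrd1 (ENSMUSG00000020250, chromosome 10, 82833951 to 82897712), the cytosolic thioredoxin reductase, ran from 27.9 to 47.8 CPM in sham with a median of 42.3. In the IZ the lowest was 44.2 CPM, the median 53.4 and the highest 142. In 8 of 9 IZ libraries it lay above every sham library, though by little in some, and IZ replicate 7 alone exceeded 87.5 CPM. The log2 fold change of 0.76 was the smallest in size of the 10 (SE 0.20, adjusted p 0.0021), and it was 0.58 without IZ replicate 7. Txnrd2, the mitochondrial reductase, went the other way, from 20.7 ± 3.79 CPM (SD, n = 8) to 5.96 ± 2.17 CPM (SD, n = 9), with a log2 fold change of −1.79 (SE 0.19, adjusted p 1.5e-08). Of 9 genes of the thioredoxin system 4 were higher and 5 lower, and 5 and 3 under total counts alone. The highest was Nxn, the thioredoxin-related nucleoredoxin, at 1.72 (SE 0.21, adjusted p 1.4e-07). The thioredoxins that these reductases recharge, named after their values were seen, showed the same contrast, with cytosolic Txn1 at 1.01 (SE 0.13) and mitochondrial Txn2 at −1.57 (SE 0.14). The contrast rests on these pairs, and the rest of the list was not sorted by compartment. Another reductase, Txnrd3, was lower at −1.52 (SE 0.27, adjusted p 3.0e-05), and so was Txnip at −1.43 (SE 0.17). Txnl1 was lower at −0.43 (SE 0.10), although at 0.67 with total counts alone, and Txndc17 was higher at 0.79 (SE 0.11).

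Nqo1 (ENSMUSG00000003849, chromosome 8, 107388225 to 107403206) ran from 37.3 to 58.9 CPM in sham with a median of 49.4. In the IZ the lowest was 7.38 CPM, the median 10.2 and the highest 40.6. In 8 of 9 IZ libraries Nqo1 lay below every sham library at no more than 20.1 CPM, and IZ replicate 1 lay within the sham range. The mean went from 48.5 ± 6.89 CPM (SD, n = 8) to 14.0 ± 10.8 CPM (SD, n = 9), or 10.6 ± 4.27 CPM without IZ replicate 1 (SD, n = 8). The log2 fold change was −1.83 (SE 0.27, adjusted p 2.8e-06), or −2.27 without that library. Of 7 quinone and carbonyl reductases 5 were lower and 1 higher, and under total counts alone 2 and 3. Cbr4, a mitochondrial reductase of fatty acid synthesis, was lowest of the 7 at −1.93 (SE 0.18, adjusted p 1.7e-09), and Cbr3 highest at 1.08 (SE 0.26, adjusted p 7.9e-04).

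Nqo1 went against most of the other genes known as NRF2 targets. Of 24 such genes, which include Nqo1, Txnrd1 and Prdx1, 13 were higher and 4 lower, with 20 and 4 under total counts alone, and the median log2 fold change was 0.72. Hmox1, the inducible haem oxygenase, was highest and went from 8.64 ± 4.33 CPM (SD, n = 8) to 278 ± 226 CPM (SD, n = 9) with a log2 fold change of 5.04 (SE 0.54, adjusted p 2.1e-08). Gsta3, a glutathione transferase, was lowest at −2.14 (SE 0.33, adjusted p 4.6e-06). Among 9 regulators of NRF2 and its partners 2 were higher and 4 lower, and 8 and 1 under total counts alone. Bach1, a repressor at the same elements, was highest at 0.78 (SE 0.14, adjusted p 3.8e-05), and Nfe2l1, a related activator, lowest at −1.49 (SE 0.15, adjusted p 7.9e-09). The genes of NRF2 itself and of its inhibitor, again named after their values were seen, stood at 0.31 (Nfe2l2, SE 0.12, adjusted p 0.022) and −0.45 (Keap1, SE 0.11, adjusted p 0.0011), and Keap1 was at 0.63 with total counts alone.

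Transcripts for glutathione synthesis and reduction and for selenoprotein synthesis moved in both directions. Of 17 tested genes of glutathione synthesis and reduction 6 were higher and 5 lower, and 12 and 3 under total counts alone. The extremes were enzymes that make NADPH. G6pdx, the first enzyme of the pentose phosphate pathway, was highest at 3.05 (SE 0.24, adjusted p 1.3e-10), and Idh2, the mitochondrial isocitrate dehydrogenase, lowest at −3.74 (SE 0.29, adjusted p 1.2e-10). Of 17 tested glutathione transferases 13 were lower and none higher, with 5 higher and 6 lower under total counts alone. The count of higher genes in edgeR was 0 also at an unadjusted p under 0.05, and DESeq2 called 1 higher and 15 lower among all genes of the list with counts. Gstm7 was lowest at −3.45 (SE 0.39, adjusted p 4.1e-08), and Gstt3 stood highest at 0.52 without passing the test (adjusted p 0.15). These genes belong to families of similar sequence, so reads could have been split between members. Of 8 genes for selenoprotein synthesis 1 was higher and 3 lower, and 7 and 1 under total counts alone. The higher was Selenop, the secreted selenium carrier, from 348 ± 31.4 CPM (SD, n = 8) to 696 ± 107 CPM (SD, n = 9, adjusted p 1.6e-07), and the lowest was Pstk, a kinase in selenocysteine synthesis, at −1.67 (SE 0.16, adjusted p 3.6e-09).

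**Figure D2:**
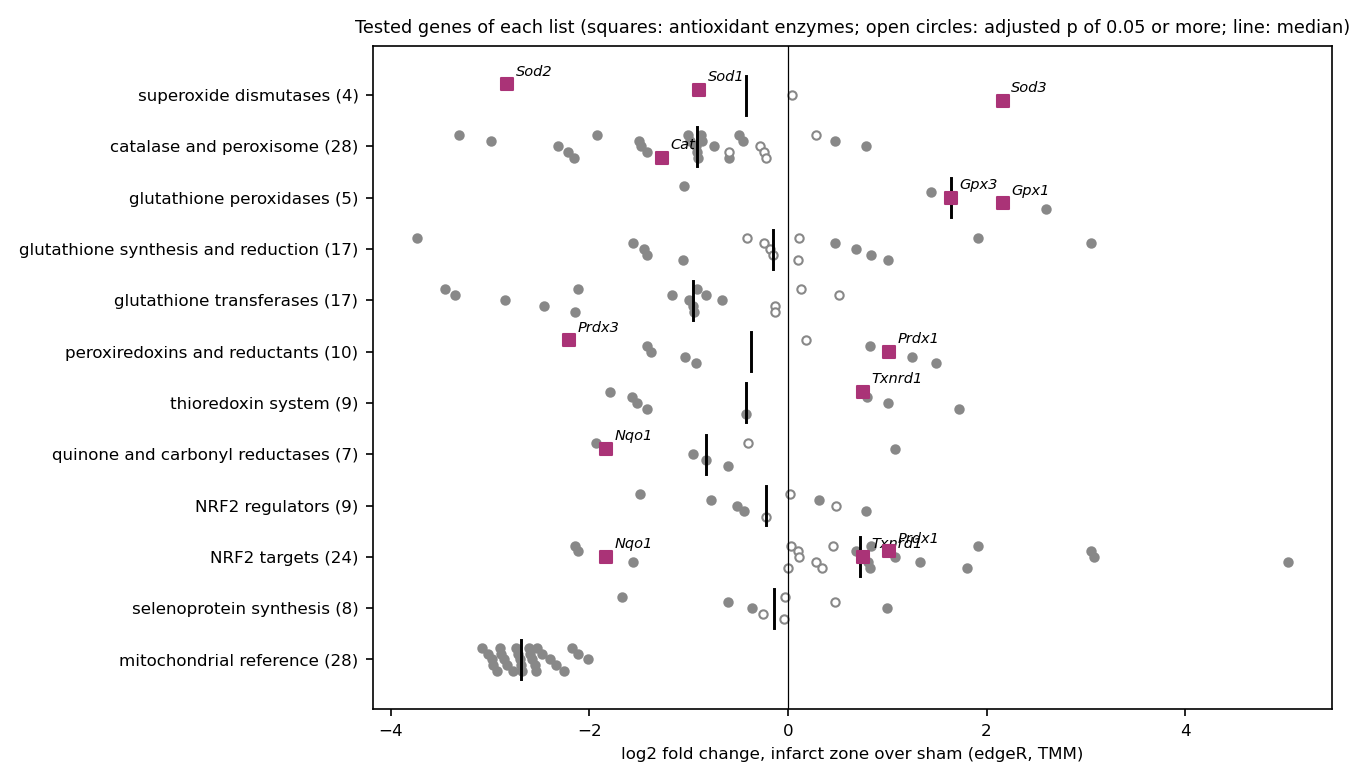
Log2 fold change (x axis, IZ over sham) of every tested gene of each list (rows, number tested in brackets), with the antioxidant enzymes as squares, genes not past the threshold as open circles and each list's median as a line. The 28 mitochondrial genes lie together from −3.08 to −2.02, the NRF2 targets spread from −2.14 to 5.04, and with total counts alone the median of all tested genes would lie 1.09 further right.

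Ratios within a library do not depend on how libraries are scaled, and the mean log2 ratios of the groups were compared by an exact two-sided permutation test that covered every split of the libraries, adjusted over 8 ratios. MACE counts are taken at transcript ends and were not divided by length. Sod2 counts per Sod1 count had a median of 1.06 in sham (0.870 to 1.53) and of 0.229 in the IZ (0.160 to 0.779), with IZ replicate 1 at 0.779 and the others at no more than 0.282. The difference in log2 ratio was −2.07 (exact permutation p 8.23e-05, the smallest that these splits allow, adjusted 1.65e-04). Prdx3 per Prdx1 went from a median of 0.869 in sham to 0.0799 in the IZ, a difference of −3.23, and Txnrd2 per Txnrd1 from 0.525 to 0.0877, a difference of −2.52. Sod3 per Sod1 went the other way, from 0.0419 to 0.424, a difference of 3.10. Those 3 ratios had the same exact permutation p and adjusted value as Sod2 to Sod1. They each set a gene called lower against a gene called higher, so their separation largely follows from the levels given above. The ratio of Sod2 to Sod1 sets genes that were both called lower, by unlike amounts, so its separation also largely follows from those levels. The p-values of these 4 ratios are therefore not separate support for a change. In all 4 ratios no IZ library overlapped sham. Gpx3 per Gpx1 went from a median of 1.45 to 0.913, and the difference of −0.54 missed the threshold (exact permutation p 0.0375, adjusted p just above 0.05). There IZ replicate 1 was the highest of all 17 libraries, and without it the difference was −0.74 (exact permutation, adjusted p 2.07e-04).

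The mitochondrial enzymes were also set against other transcripts of their organelle, each on its own, and Sod2 was not tested against Prdx3. The 28 nuclear genes of respiration and the citric acid cycle used as a reference were all lower, also with total counts alone, from Cyc1 at −3.08 to Ndufs8 at −2.02, with a median of −2.69. The log2 ratio of Sod2 to their summed counts was −5.89 ± 0.22 in sham (SD, n = 8) and −6.07 ± 0.16 in the IZ (SD, n = 9), a difference of −0.17 that did not pass (exact permutation p 0.0802, adjusted 0.0822). The log2 ratio of Prdx3 to the same genes was −6.96 ± 0.10 in sham (SD, n = 8) and −6.40 ± 0.36 in the IZ (SD, n = 9). It was higher in the IZ by 0.57 (exact permutation p 0.00123, adjusted 0.00197), in 8 of 9 libraries above every sham library, while IZ replicate 1 lay below all of them. Without that library the difference was 0.68. Cat against the summed counts of the rest of the peroxisome list differed by 0.25, which did not pass (exact permutation p 0.0822).

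**Figure D3:**
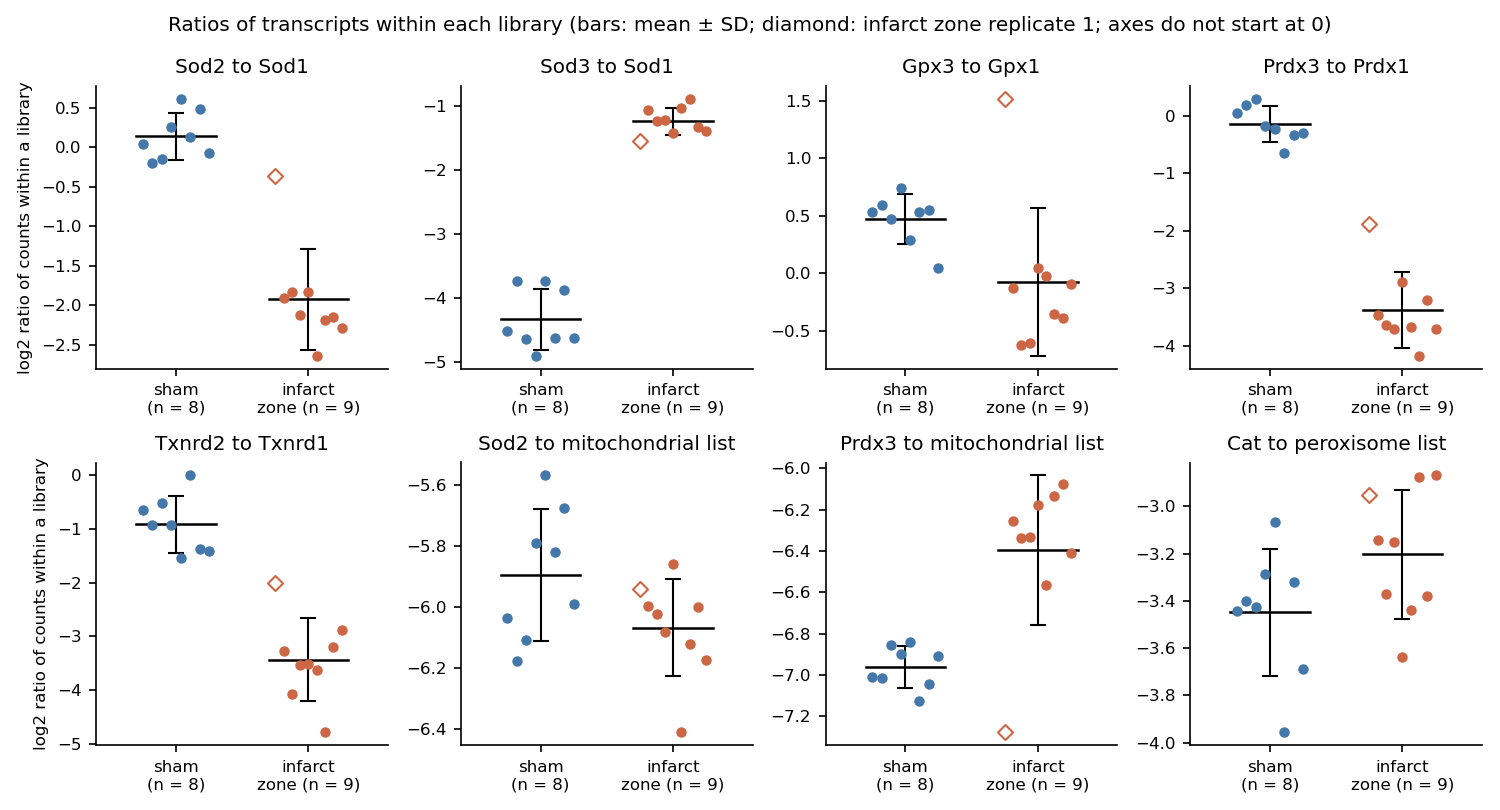
Log2 ratio of counts within each library (y axes, which do not start at 0), 1 point per mouse with the mean and SD of each group as bars and IZ replicate 1 as an open diamond. Sham and IZ are separate for Sod2 to Sod1, Sod3 to Sod1, Prdx3 to Prdx1 and Txnrd2 to Txnrd1, and overlap for Sod2 against the mitochondrial genes.

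How the enzymes varied among the IZ libraries was compared with the summed cardiomyocyte markers. IZ replicate 1 stood apart in that sum, so it was left out and the relation was tested in the other 8, with an exact two-sided permutation test over all pairings and adjustment over the 10 enzymes. Sod1 had the strongest relation (Pearson r 0.87, exact permutation p 0.0088, adjusted 0.088; Spearman rho 0.76, exact permutation p 0.037, adjusted 0.19). None passed after adjustment, and r lay between −0.28 for Txnrd1 and 0.65 for Nqo1 in the other 9. Without the 2 libraries farthest from the median of the marker sum, r for Sod1 was 0.98 (exact permutation p 0.00278, n = 6). With 8 libraries, relations of moderate size could not be told from none.

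**Figure D4:**
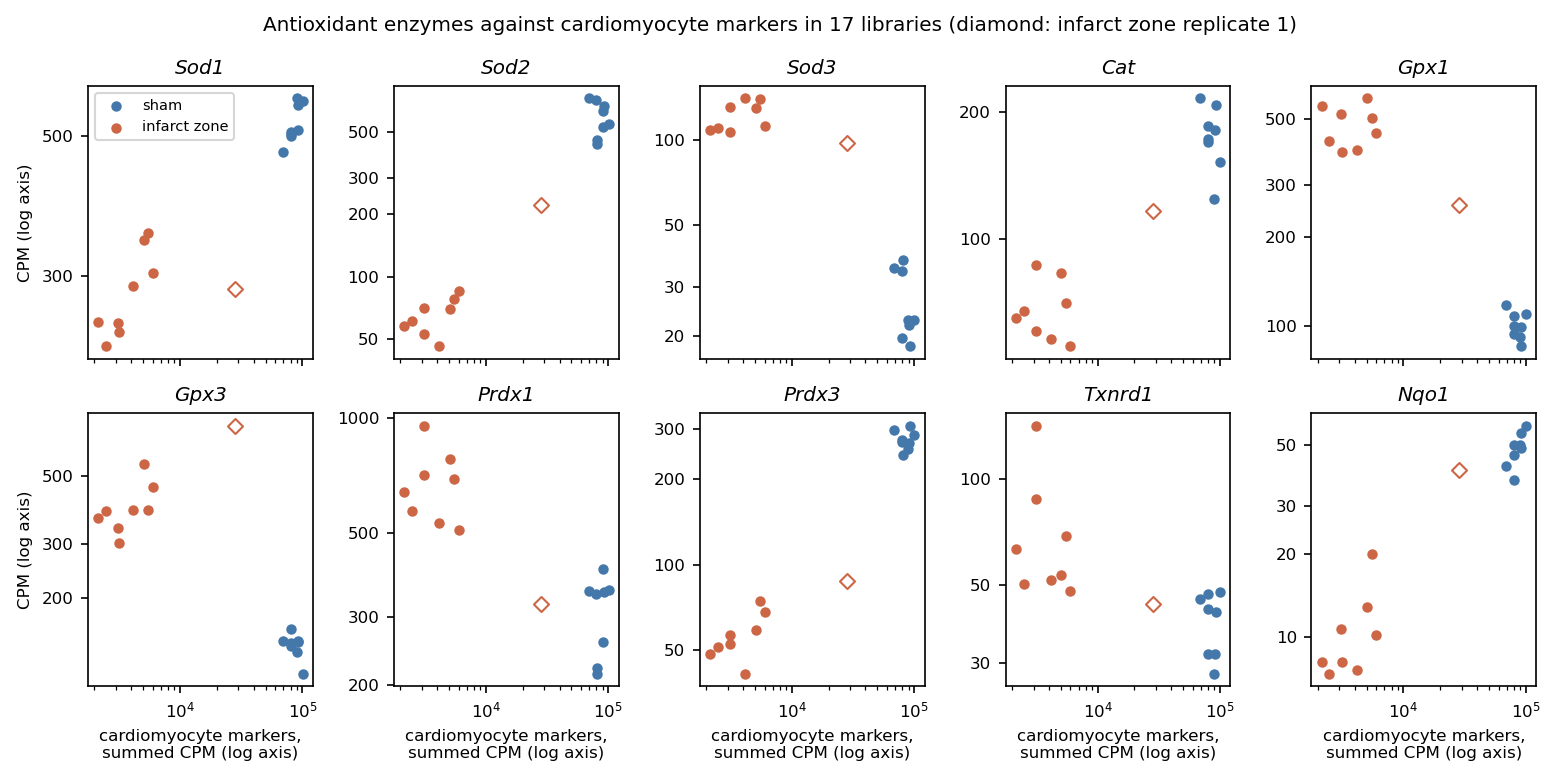
Level of each enzyme (y axis, CPM, log scale) against the summed CPM of 10 cardiomyocyte markers (x axis, log scale) in 8 sham and 9 IZ libraries, with IZ replicate 1 as an open diamond. That library lies between the groups on the x axis at 28320 CPM, and its Sod2, Sod3, Cat, Gpx1 and Prdx3 also lie between the other IZ libraries and sham, while its Sod1 and Gpx3 do not.

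For each enzyme the gene with the most similar profile was sought among 9329 tested genes of at least 10 CPM on average, as the smallest root mean square difference of mean-centred log2 CPM over the 17 libraries. These profiles are dominated by the difference between the groups. Sod2 was nearest to Mdh1, the cytosolic malate dehydrogenase (0.14), Prdx3 to Ndufa1, a complex I subunit (0.16), and Sod1 to Dnlz, a mitochondrial chaperone partner (0.14). Among the enzymes that rose, Gpx1 was nearest to Grn, the gene of lysosomal progranulin (0.19), Gpx3 to Clu, the secreted chaperone clusterin (0.24), and Sod3 to Cnn2, a calponin (0.23). Prdx1 was nearest to Rpl22l1, a ribosomal protein (0.22), Txnrd1 to Srgn, a proteoglycan of secretory granules (0.28), Cat to Pdp1, a pyruvate dehydrogenase phosphatase (0.20), and Nqo1 to Cryab, a small heat shock protein abundant in muscle (0.27).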

How the data were processed

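The authors extracted total RNA, treated it with DNase and made 3' end libraries carrying molecular identifiers. Reads were trimmed and, per the labels, processed with Bowtie2 and HTSeq against mm10, and the deposited values are raw counts per gene for 17 heart libraries. The annotation release and how reads with more than 1 location were handled are not given in the sources used here, so near-identical genes are treated as uncertain. Every column was used, and groups follow the labels. Identifiers were named with GENCODE M21 of GRCm38, where 31521 of 31647 features matched, and 35 merged features, at most 0.215% of a library, were kept unnamed. All 136 pairs of libraries differed by 2.56 to 281 times the sampling variance, so none was a copy.

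The test across genes was run in edgeR 4.0.16 under R 4.3.3 (filterByExpr with a minimum of 10 counts, TMM factors 0.613 to 1.54, two-sided quasi-likelihood F-test, no covariates). SEs were derived from the F statistic, and 0.5 was added to counts in ratios. The last 500 bases of transcripts were compared by BLAST 2.17.0, and matches over 100 bases or more at 95% identity were called near-identical. Permutation tests enumerated every split or pairing with NumPy 2.4.6. Tested on simulated data, the procedure called 81.1% of 185 tested genes changed by 1 on the log2 scale, and 5.06% of its calls were unchanged genes. All simulated libraries were drawn from the sham means, with few changed genes, set equally up and down. In the real data 69.5% of tested genes were called, so these rates need not hold there. The members, lists and markers were chosen with earlier results of these data known. Named genes were the 10 enzymes, the highest and lowest other gene of each pathway list, and the nearest profile of each enzyme. Alternatives were other scalings (DESeq2 size factors, upper quartile, total counts), DESeq2 1.42.0, other filters, thinning, leaving out mitochondrially encoded features or any 1 library, and a block by replicate number. Summed near-identical copies and list counts under other settings were added after seeing the data. Lymphocyte and adipocyte markers were too low to be tested, none of 5 tested erythroid markers was called by edgeR (0 at an unadjusted p under 0.05, and 0 by DESeq2), and of 7 endothelial and 5 mural markers 2 and 3 were lower.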

Additional observations from a re-analysis of the deposited data

Results flagged for a closer look

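Of 36 groups of values examined for a library far from the others, 6 had one. The rule used would flag about 1 in 20 groups of independent, normally distributed values. These groups shared libraries and genes, so no excess over chance can be read from the count. IZ replicate 1 held 5 of the 6 flagged values. Its Sod2 level was 222 CPM, with the other 8 IZ libraries at 46.1 to 85.0 CPM, and its Nqo1 level was 40.6 CPM, with the others at 7.38 to 20.1 CPM. Its log2 ratio of Sod2 to Sod1 was −0.36, with the others at −2.64 to −1.83. Its log2 ratio of Gpx3 to Gpx1 was 1.52, with the others at −0.62 to 0.04, and its log2 ratio of Prdx3 to the mitochondrial genes was −7.28, with the others at −6.56 to −6.08. In the same library cardiomyocyte markers summed to 28320 CPM and mitochondrially encoded features took 19.5% of counts, both between sham and the other IZ libraries, and their part in these values was not tested. The sixth value was Txnrd1 in IZ replicate 7, at 142 CPM with the others at 44.2 to 87.5 CPM. That library had the lowest total of all, 1237675 counts, and the highest neutrophil marker sum, 210 CPM, and their part was not tested either.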

How the results depend on the processing

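The 5 higher calls remained in number under every alternative run, and the 5 lower calls under all but total counts alone, where they were 3. There Sod1 stood at 0.18 (adjusted p 0.174) and Cat at −0.20 (adjusted p 0.132), the median of all tested genes was 1.09 higher and 85.8% of calls were higher. Upper quartile scaling moved the median by 0.11 no filter on low counts by 0.19 and the DESeq2 Wald test by −0.25, these last over 27668 genes in place of 12301. A minimum mean of 50 counts left 5239 genes called in place of 8544, of fewer tested, and leaving out 1 library gave 7962 to 8614. The difference in log2 ratio of Gpx3 to Gpx1 passed the threshold when medians were compared (−0.66, adjusted exact permutation p 0.0178) and without sham replicate 5, sham replicate 8 or IZ replicate 1, and over all single omissions it ran from −0.74 to −0.47. The ratio of Sod2 to the mitochondrial genes ran from −0.21 to −0.12 and passed without sham replicate 2. The ratio of Cat to the peroxisome list ran from 0.17 to 0.30 and passed without sham replicate 5 or IZ replicate 5. Of the relations to cardiomyocyte markers, 1 passed without the 2 libraries farthest from the median and 0 otherwise. The causes were not tested.

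Same-numbered libraries did not vary together, with correlations of −0.22 to 0.13, 1 of 8 over 0.1 and 1 of 8 highest with its own number, so the numbers were not taken to pair samples. With the number as a replicate block 8079 genes were called, 5 enzymes were higher and 5 lower, and each of the 8 ratios stayed on its side of the threshold. The list counts and the relations were not run with the block. The blocked log2 fold changes were −0.94 for Sod1, −2.97 for Sod2 and 0.73 for Txnrd1, and the blocked difference for Gpx3 to Gpx1 was −0.54.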

Other observations

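How often IZ replicate 7 held the highest of the 9 IZ values was counted in each list. Among the 24 NRF2 targets it did so for 11, or 45.8%, beside 16.02% of all tested genes, and among the 9 genes of the thioredoxin system for 3. Both counts include Txnrd1, and the count of NRF2 targets also includes Prdx1. Gclm, Gsr, Slc7a11 and Srxn1, also among those NRF2 targets, are in other pathway lists too, so the shares of the lists are not independent. It was highest for 0 of 5 glutathione peroxidases and 3 of 17 glutathione transferases, or 17.6%, and in the remaining pathway lists its share ran from 0 to 33.3%. IZ replicate 1, the highest for 25.4% of all tested genes, was so for 3 of the NRF2 targets, while it held 5 of the 10 antioxidant enzyme maxima. These counts were looked at after the Txnrd1 value was seen.

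Within sham, Prdx1 fell into separate ranges, with replicates 1, 2 and 3 at 258, 214 and 222 CPM and the other 5 at 345 to 401 CPM. Sod3 ran from 34.3 to 37.3 CPM in sham replicates 2, 5 and 7 and from 18.4 to 22.8 CPM in the other 5. The labels gave nothing that separates these libraries.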
